A study of Mus musculus with 8 samples.

Results

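The 7 genes described here, Erbb3, Sox10, Foxd3, Fabp7, S100b, Ngfr and Cdh19, are markers of Schwann cells and of the glia that descend from the neural crest. They were taken by symbol from a table of 55536 genes measured in the back part of the palatal shelves of mouse embryos at E14.5, and all 7 were present and passed the filter on low values. The 4 mutant libraries came from Yapfl/fl;Tazfl/fl;Col2Cre embryos, and the 4 control libraries from Yapfl/fl;Tazfl/fl embryos, so floxed alleles of both genes were shared by all animals and the Cre transgene separated the groups. Col2Cre is a Cre recombinase driven by Col2a1 regulatory sequence, which is active in cartilage-forming cells. For each library the left and right shelves, not yet elevated, were cut from behind and medial to the molars, and epithelium and mesenchyme were kept together. Separate animals are not named for the libraries, and the p-values therefore cover only the spread among the samples, which may be partly technical. Whether glial cells of the shelves carried recombined alleles was not measured.

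Schwann cells wrap peripheral axons, and their precursors travel along growing nerves from the neural crest, the migratory embryonic cell population that also gives melanocytes and the mesenchyme of the face. The transcription factor SOX10 is needed for this lineage and turns on the receptor gene Erbb3, and neuregulin from axons then keeps the precursors alive through ERBB3 paired with ERBB2. In the palate such cells accompany the branches of the trigeminal nerve. In whole tissue, a change in the number of glial cells and one in RNA per glial cell cannot be told apart.

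None of the 7 genes passed the test over all genes. Their mean levels were nonetheless mostly on the higher side in mutants: 6 of the 7 had a higher mean log2 level in mutants, against 50% of all 16647 genes tested, and the median of their log2 differences was 0.41, against a median of 0.00 over all genes. That count was 4 without control replicate 4, and 7 without mutant replicate 2 or without control replicate 1. The members were chosen with earlier results of these data known, so the share is a description only. Foxd3 had 1.92 times and Fabp7 2.14 times the control mean, Sox10 (1.57) and Erbb3 (1.34) were intermediate, and Ngfr, Cdh19 and S100b differed little relative to their error. Single mutant libraries carried much of this: mutant replicate 1 held by far the most Sox10, and mutant replicate 2 by far the most Fabp7. Foxd3 was the only member with every mutant library above every control library, a pattern found in 1.86% of all genes tested (3.77% without overlap in either direction). Foxd3 and Fabp7 had log2 differences of at least 1, as did 2.08% of genes. The test was limma on log2(normalised count + 1) with Benjamini-Hochberg adjustment at 0.05, which called 0 genes as higher (0%) and 4 as lower in mutants (0.024%). At an unadjusted p under 0.05 it had 462 genes higher (2.78%), Erbb3 and Foxd3 among them, and 631 lower (3.79%). On recovered reads edgeR called 0 genes higher (0%) and 5 lower (0.03%), and DESeq2 called 3 higher (0.018%) and 28 lower (0.168%), none of them a member.

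**Figure D1:**
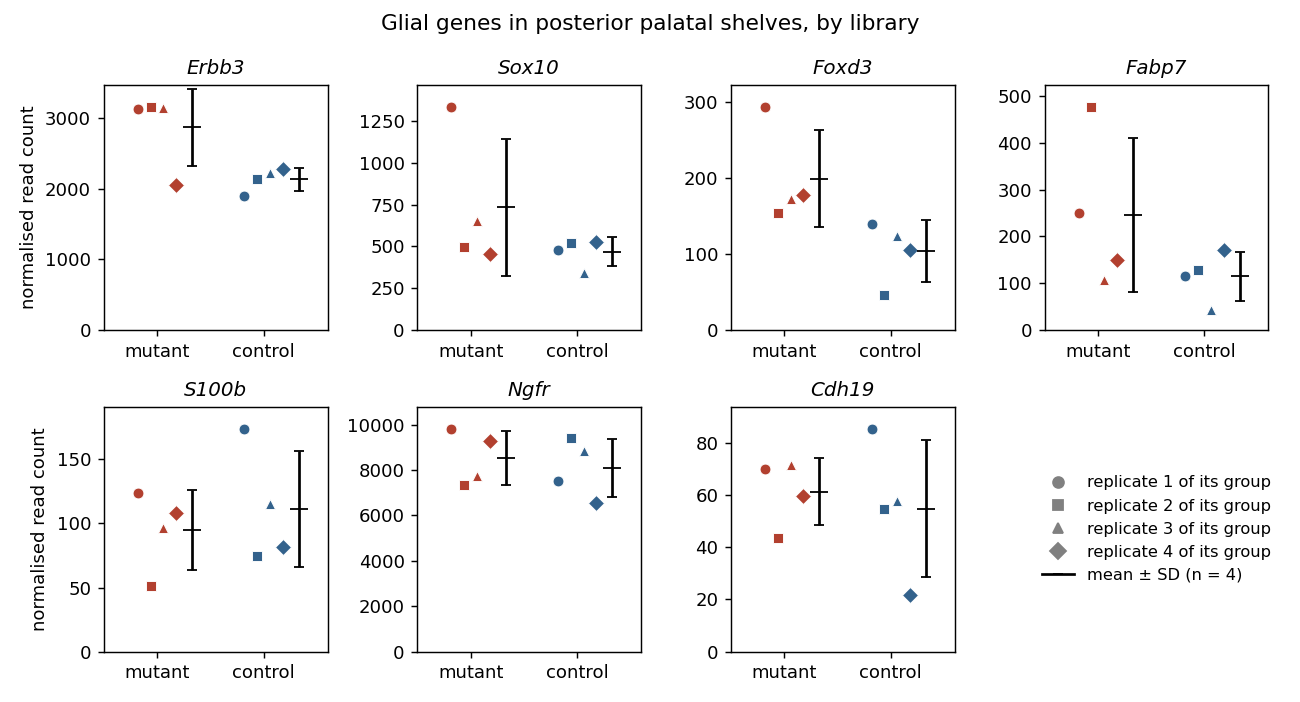
Normalised read counts (vertical axes, from 0) of the 7 glial genes in each library, mutants left of controls, with the mean and SD of 4 libraries beside the points. Foxd3 has no overlap between the groups, Sox10 has a single high point at 1333.2 in mutant replicate 1, and Fabp7 a single high point at 476.1 in mutant replicate 2.

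The libraries were evenly deep, with 29025089 to 32437977 reads in genes. Yap1 had 8463 ± 277 normalised counts in mutants and 9610 ± 429 in controls (SD, n = 4 each), lower in every mutant library, and Wwtr1, the gene for TAZ, had 4007 ± 397 in mutants and 4879 ± 352 in controls. Neither passed the limma test (adjusted p = 0.751 for both), and reads of floxed exons are pooled with those of other exons in these values. The summed counts of 8 palatal mesenchyme markers such as Osr2, Meox2 and Tbx22 ran from 40391 to 43919 in mutants and from 37107 to 43602 in controls. Such a sum follows its most abundant genes. The log2 differences of the single markers ran from -0.45 to 0.30, with 5 higher and 3 lower means in mutants, and none passed. Mutant replicate 2 stood apart: genes of forebrain neurons and their progenitors were high in it alone (Neurod6 at 716.5 and Eomes at 708.9, against at most 24.3 in any other library), it had the highest epithelial and erythroid levels, and Xist was at 840.4 against at most 17.4. These 3 genes were chosen after their values were seen. A locus of ribosomal RNA, Gm42418, took 1.56% to 2.48% of reads in mutants and 4.22% to 5.66% in controls.

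Per length of exon the members were expressed at very unlike levels. Ngfr came first with 2479 normalised counts per kb in mutants and 2345 in controls, above Erbb3 in all 8 libraries and without overlap of their ranges. Erbb3 (478 in mutants and 355 in controls) stood above Sox10 (241 and 153) in all 8 libraries, and Sox10 above Fabp7 (196 and 91.6) in 7. S100b (63.9 and 74.8) and Foxd3 (85.5 and 44.5) did not have a stable order, with S100b above Foxd3 in 4 of 8 libraries, and Fabp7 was above S100b in 6. Cdh19 was the lowest, at 14.3 in mutants and 12.8 in controls, below Foxd3 in every library. Apart from Ngfr and Erbb3, the ranges of neighbours in this order overlapped across libraries.

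**Figure D2:**
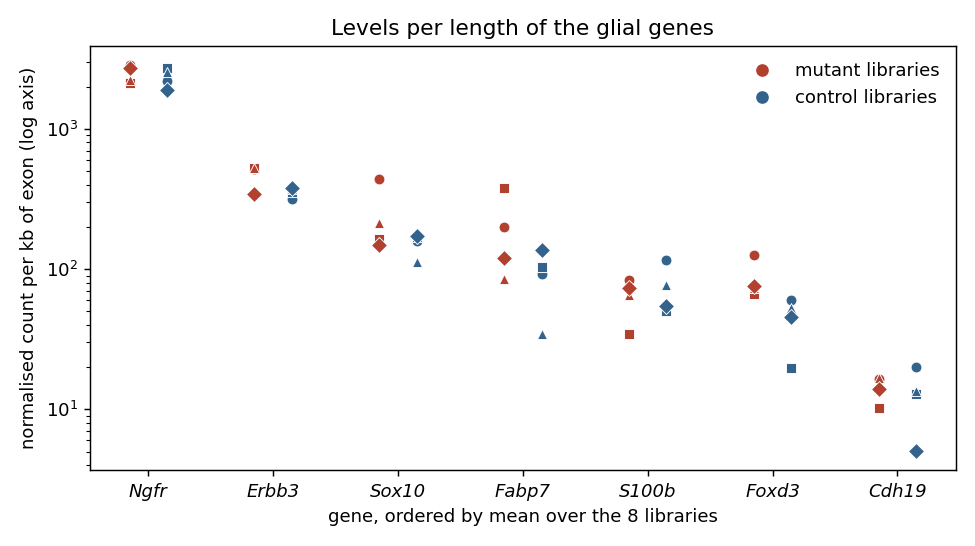
Normalised counts per kb of annotated exon (vertical axis, logarithmic) of the 7 genes in each of 4 mutant and 4 control libraries, ordered by the mean of all 8. Ngfr is set apart at the top, between 1905 and 2846, and Cdh19 lies at the bottom, between 5.05 and 19.9.

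Erbb3 encodes a receptor tyrosine kinase with little kinase activity of its own, which binds neuregulins and signals through ERBB2. It lies at chr10:128567523-128589652 on the minus strand (ENSMUSG00000018166), and besides the Schwann lineage it is also made by epithelia. It had 3134.1, 3160.2, 3146.3 and 2050.2 normalised counts in mutant replicates 1 to 4, against 1902.8, 2146.6, 2224.3 and 2277.4 in controls. The first 3 mutant libraries were nearly equal and above every control, while mutant replicate 4 lay inside the control range. The log2 difference was 0.41 (SE 0.129, limma adjusted p = 0.754), the smallest p of the 7 and rank 172 among the 16647 genes. Without mutant replicate 4 it was 0.56 and Erbb3 passed (limma adjusted p = 0.0267, against 0.597 to 0.975 with any other library left out), as the 1 gene called higher in that fit (0.00601%, with 0.042% lower). The sample titles begin with a number that some mutants and controls share, and whose meaning the labels do not give. With that number as a block the difference was 0.20. Mutant replicate 1 and control replicate 1 share their number with no other library, so they carry no weight in that value. Within the 3602 samples the difference was 0.50 (2 mutants, 1 control), and within the 2057 samples -0.11 (1 mutant, 2 controls). Epithelial markers were at their highest in mutant replicate 2 and at the control level in mutant replicate 1 (mean log2 level 0.74 and -0.0016 relative to controls), libraries with 3160.2 and 3134.1 counts of Erbb3. Over all 8 libraries, which share the dissection, Erbb3 and the epithelial level had r = 0.43, and r = -0.08 without mutant replicates 2 and 3. Other lists had an r of larger size with Erbb3, such as -0.84 for osteoblast markers. The part of epithelium in the Erbb3 difference was not tested.

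None of the 6 tested genes among the other ErbB receptors and the neuregulins passed in either direction, 2 having higher and 4 lower means in mutants, and their median was -0.10 on the log2 scale. Erbb2, the signalling partner, had 6190 ± 177 normalised counts in mutants and 6236 ± 468 in controls (SD, n = 4 each), which is -0.01 on the log2 scale (SE 0.0616). Egfr, the EGF receptor, was at -0.21 (SE 0.0737, limma adjusted p = 0.754) and Erbb4 at -0.19 (SE 0.369). Of the ligand genes, Nrg1, whose axonal form sustains Schwann cell precursors, had 95.3, 167.5, 105.2 and 45.5 normalised counts in mutants, against 191.7, 46.9, 107.7 and 146.3 in controls. The groups overlapped over nearly their whole range, and neuregulin made in ganglia outside the shelf is not measured here. Nrg2 was at 0.57 (SE 0.384), Nrg3 at 0.11 (SE 0.290), and Nrg4 was too low to test, at 0.0 to 20.3 in mutants and 5.9 to 38.1 in controls.

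Ngfr encodes p75NTR, the receptor shared by all neurotrophins, found on neural crest cells, immature Schwann cells and neurons. It lies at chr11:95568818-95587735 on the minus strand (ENSMUSG00000000120). It had 9808.8, 7321.8, 7745.6 and 9296.3 normalised counts in mutants, against 7534.6, 9413.3, 8818.1 and 6563.0 in controls. The groups overlapped over nearly their whole range, and the log2 difference of 0.08 (SE 0.119, limma adjusted p = 0.922) was -0.01 without control replicate 4. The spread between libraries was 14.0% of the mean in mutants and 15.8% in controls. Mutant replicate 1, first for Sox10 and Foxd3, was also first for Ngfr. As a description over the 8 libraries, Ngfr had r = 0.30 with the other Schwann lineage genes and r = -0.70 with the palatal mesenchyme markers. Without mutant replicate 1 and control replicate 4 these were -0.35 and -0.40. Which cells of the shelves made Ngfr was not measured, and the part of cells other than glia in its values was not tested.

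Of 10 neurotrophin ligands and receptors, 5 had higher and 5 lower means in mutants, the median log2 difference was -0.01, and none passed. Ntf5, the gene for neurotrophin 4, had 435.6, 628.4, 397.5 and 547.2 normalised counts in mutants, against 343.9, 301.6, 333.4 and 499.9 in controls, with overlap between the groups. Its log2 difference was 0.44 by limma (SE 0.187, adjusted p = 0.754). Of the other ligand genes, Ntf3 was at 0.21 (SE 0.149) and Bdnf at -0.11 (SE 0.182). Among the receptors, Ntrk2 was at -0.20 (SE 0.187), Ntrk3 at 0.04 (SE 0.242) and the co-receptor gene Sort1 at -0.05 (SE 0.0691).

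Sox10, the gene for the transcription factor that specifies and maintains peripheral glia, lies at chr15:79154913-79164490 on the minus strand (ENSMUSG00000033006). It had 1333.2, 498.8, 650.3 and 453.1 normalised counts in mutants, against 480.2, 519.3, 341.6 and 527.4 in controls. Mutant replicate 1 held over 2-fold more than any other library, mutant replicate 3 came second, and the 2 remaining mutants lay among the controls. The log2 difference was 0.53 (SE 0.286, limma adjusted p = 0.773), while leaving out mutant replicate 1 gave 0.20. It was 0.26 with the title number as a block, a fit in which mutant replicate 1 and control replicate 1 carry no weight. Without mutant replicates 1 and 2 the difference was 0.24. Within the 3602 samples it was 0.74, and within the 2057 samples -0.21. The spread of Sox10 among mutants was 55.6% of its mean, where counting error alone gives 3.64%. Sox9, a close relative that works in cartilage, was at -0.18 (SE 0.144).

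Foxd3 encodes a forkhead factor that holds neural crest cells in a progenitor state, favours glia over melanocytes and stays on in Schwann cell precursors. It lies at chr4:99656299-99658622 on the plus strand (ENSMUSG00000067261), and an annotated miRNA gene, Gm23366, lies inside it, so reads of the pair cannot be told apart. It had 292.7, 153.3, 171.7 and 177.0 normalised counts in mutants, against 139.5, 45.9, 123.1 and 105.1 in controls. All mutant libraries were above all control libraries, by little between mutant replicate 2 and control replicate 1. The log2 difference was 1.0 (SE 0.345, limma adjusted p = 0.754), rank 272 by p. It ran from 0.65 without control replicate 2, the lowest library, to 1.18 without control replicate 1, and was 0.86 without mutant replicates 1 and 2. It was positive in both sets of samples that share a title number, 0.40 for 3602 and 1.34 for 2057. At this level counting error is 7.0% of the mean in mutants and 9.94% in controls, below the spread between libraries of 32.0% and 39.5%. Its paralog Foxd2 was at -0.85 (SE 0.376) and did not pass.

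Fabp7, the brain fatty acid binding protein, is made by Schwann cell precursors and also by radial glia, the stem cells of the embryonic brain. It lies at chr10:57784881-57788450 on the plus strand (ENSMUSG00000019874). It had 248.9, 476.1, 106.1 and 149.7 normalised counts in mutants, against 116.1, 128.9, 43.1 and 169.9 in controls. Mutant replicates 1 and 2 lay above all other libraries, and the 2 remaining mutants lay inside the control range. Its log2 difference was the largest of the members, 1.02 (SE 0.484, limma adjusted p = 0.754), and the value was 0.62 when mutant replicate 2 was left out, 0.61 when control replicate 3 was, and 0.30 without both mutant replicates 1 and 2. Within the 3602 samples it was 2.36, and within the 2057 samples 0.02. Mutant replicate 2, with the highest Fabp7, was also the highest for Neurod6 and Eomes, for the neuronal genes Tubb3 at 1943.1 and Elavl3 at 943.6, and for Pou3f2, a factor of brain and Schwann cells, at 179.8, all chosen after their values were seen. Over the 10 central nervous system markers, summed counts ran from 4070 to 6582 in mutants and from 4334 to 6687 in controls, a sum made up mostly of Slc1a3, which peripheral glia and mesenchyme also express. Of the narrower markers in that list, Neurod6 had 8.8, 716.5, 18.3 and 4.0 normalised counts in mutants and was at 0 in all 4 controls. It was low outside mutant replicate 2, and not all of these markers followed the groups. Eomes had 24.3, 708.9, 7.7 and 0.0 in mutants, against 0.0, 0.0, 16.4 and 0.0 in controls. Olig1, a marker of oligodendrocyte precursors, stayed at or below 5.7 in every library and was at 0 in the controls. Across the 8 libraries, which share the dissection, Fabp7 and the mean level of the 4 tested markers had r = 0.84 and rho = 0.81, and r = 0.58 without mutant replicate 2 and control replicate 3, as a description. Those 4 include Slc1a3, lowest in mutant replicate 2 at 3686.4, but not Neurod6, Eomes or Olig1. These were not tested because they did not reach 10 normalised counts in at least 4 libraries. Fabp7 also had r = -0.77 with the endothelial markers, -0.73 with the relatives of the members and 0.70 with the neuron markers. The part of brain tissue in the Fabp7 difference was not tested. Among other fatty acid binding proteins, Fabp5 was at 0.30 (SE 0.118) and Fabp3, lower in every mutant library, at -0.64 (SE 0.230, limma adjusted p = 0.754), a pattern of 1.91% of genes tested.

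Promoter sequence is shown for Foxd3 and Fabp7 because they had the largest differences. The reference table of RefSeq for GRCm38.p6 matched 4 of the 7 members, and the 250 bases before each annotated start were searched on both strands for ACAAAG and ACAATG (SOX factors), GGAATG (the TEAD partners of YAP and TAZ) and CCAAT (the CCAAT box), which do not overlap among the matches found. The SOX and TEAD letters were found in none of Foxd3, Fabp7, S100b and Ngfr, against 25.2% of all 32851 promoters of the same length for either SOX motif and 12.6% for TEAD. CCAAT, held by 33.8% of all promoters, occurred in Fabp7 from base 126 to 122 and from base 56 to 52 before the RefSeq start, both on the minus strand and written ATTGG, and in S100b at 2 places. The Foxd3 stretch is chr4:99656049-99656298 on the plus strand. For Fabp7 the RefSeq start lies inside the gene as the deposited table places it, and the last 42 of the 250 bases fall within that gene. They are left out of the printed stretch, chr10:57784673-57784880 on the plus strand, in which capitals mark the CCAAT letters. GC content of the 250 bases was 65.6% for Foxd3 and 54.8% for Fabp7.
Foxd3: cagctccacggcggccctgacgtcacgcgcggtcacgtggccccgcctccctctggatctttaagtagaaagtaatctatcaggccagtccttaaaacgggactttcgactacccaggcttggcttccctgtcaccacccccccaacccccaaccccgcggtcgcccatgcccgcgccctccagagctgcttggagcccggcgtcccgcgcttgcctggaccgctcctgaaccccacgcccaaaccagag
Fabp7: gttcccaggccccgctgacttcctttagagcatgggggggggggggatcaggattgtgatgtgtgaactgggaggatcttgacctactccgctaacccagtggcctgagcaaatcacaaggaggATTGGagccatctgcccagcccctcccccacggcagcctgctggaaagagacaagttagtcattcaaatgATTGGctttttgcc

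S100b encodes a calcium-binding protein of mature Schwann cells that is also made by chondrocytes and melanocytes. It lies at chr10:76253853-76261159 on the plus strand (ENSMUSG00000033208). It had 123.5, 51.1, 96.5 and 108.2 normalised counts in mutants, against 173.6, 74.2, 114.9 and 81.5 in controls. The groups overlapped, with the highest value in control replicate 1 and the lowest in mutant replicate 2, which were also the libraries with the highest and the lowest cartilage level (1.24 and -1.04 on the log2 scale relative to controls). S100b and the cartilage level had r = 0.62 over the 8 libraries, which share the dissection, and r = -0.04 over the other 6. Other lists had an r with S100b of like size over the 8 libraries. It was 0.63 for endothelial, -0.68 for erythroid and -0.61 for palatal mesenchyme markers, and -0.67 for the neurotrophin list. The log2 difference of -0.22 (SE 0.349, limma adjusted p = 0.932) was 0.05 without mutant replicate 2 and 0.03 without control replicate 1. The part of cartilage in the S100b values was not tested. Within the 3602 samples the difference was -0.70, and within the 2057 samples 0.47.

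Cdh19, a type II cadherin described as a marker of Schwann cell precursors in rat, was the least abundant member. It lies at chr1:110888326-110977584 on the minus strand (ENSMUSG00000047216). It had 70, 43.5, 71.4 and 59.7 normalised counts in mutants, against 85.2, 54.7, 57.5 and 21.6 in controls. Control libraries spread more widely than mutants, from the lowest to the highest value of all 8. The log2 difference was 0.28 (SE 0.415, limma adjusted p = 0.923) and -0.10 without control replicate 4. Counting error was 12.6% of the mean in mutants and 13.7% in controls, and the spread between libraries 21.05% and 47.6%. The difference was smaller than its SE. Cdh2, the neural cadherin also made by mesenchyme, was at -0.23 (SE 0.0925). Over all 17 relatives followed from the forkhead, fatty acid binding, S100 and cadherin families, 7 had higher and 10 lower means in mutants, and none passed.

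**Figure D3:**
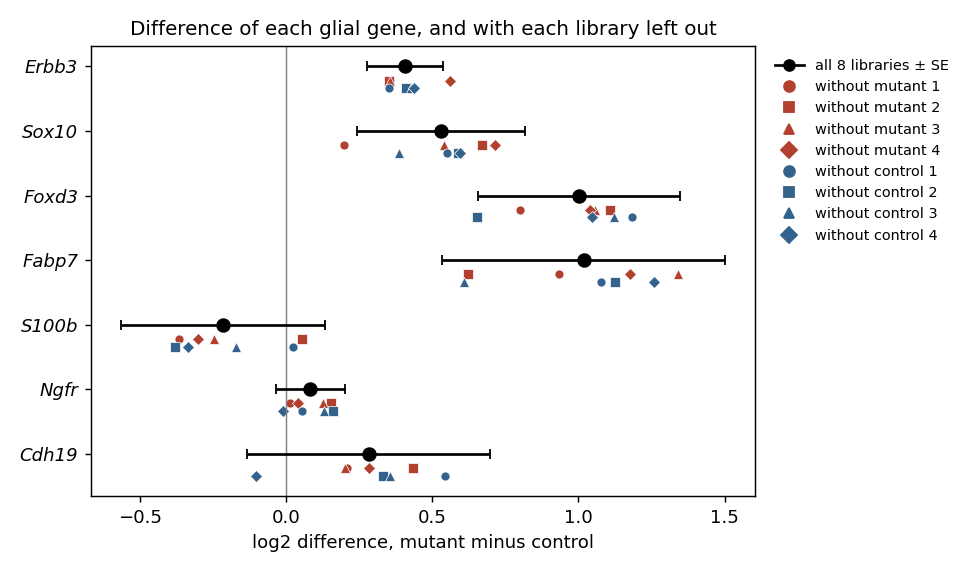
Log2 difference, mutant minus control (horizontal axis), of the 7 genes with all 8 libraries (black, ± SE) and with each library left out (coloured symbols below). Foxd3 stays between 0.65 and 1.18, Sox10 drops to 0.20 without mutant replicate 1, and S100b, Ngfr and Cdh19 each cross 0 for at least 1 library left out.

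The members did not move as a block across libraries. In mutant replicate 1 all 7 were above the control mean, with a mean excess of 0.86 on the log2 scale, whereas mutant replicates 2, 3 and 4 had 4, 5 and 5 members above it and a mean excess of 0.32, 0.33 and 0.27. Control replicates 1 to 4 had 5, 5, 5 and 4 members above it, the same range as mutant replicates 2 to 4, and mean deviations of 0.29, -0.09, -0.11 and -0.09. The deviation of control replicate 1 was thus above that of mutant replicate 4. Over the 21 pairs of members, Pearson's r across the 8 libraries ran from -0.54 (Fabp7 and S100b) to 0.61 (Erbb3 and Sox10), with a median of 0.27 and 16 pairs above 0. These are descriptions over libraries of both genotypes that share the dissection and a like depth. Erbb3 and Sox10 had a Spearman rho of 0.55, and r = 0.86 without mutant replicates 2 and 3, the libraries with the most extreme Erbb3. That r keeps mutant replicate 1, high for both genes (3134.1 for Erbb3 and 1333.2 for Sox10). It therefore does not show whether the likeness holds without that library. The r of 0.52 between Sox10 and Foxd3 went to 0.01 without mutant replicate 1 and control replicate 3, the most extreme Sox10 libraries. The number of Erbb3 counts per Sox10 count was 2.35, 6.34, 4.84 and 4.52 in mutants, against 3.96, 4.13, 6.51 and 4.32 in controls, lowest in the library with the most Sox10.

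Other genes of the Schwann lineage had mostly higher means in mutants too, and mutant replicate 1 led them. Of 20 tested genes in this list, 17 had higher and 3 lower means in mutants, none passed, and the median was 0.38 on the log2 scale. Dhh, a hedgehog ligand made by Schwann cells, had 182.8, 21.8, 4.8 and 11.1 normalised counts in mutants, against 10.6, 32.2, 25.6 and 7.9 in controls. Gjc3, a glial connexin gene, had 130.3, 53.9, 37.6 and 24.3 in mutants, against 35.1, 32.2, 13.3 and 42.2 in controls. For both genes mutant replicate 1 was the highest library, and the groups overlapped. Both were chosen after their values were seen. The mean log2 level of the list was 1.06, 0.52, 0.00 and -0.12 in mutants relative to controls, and the group difference of 0.36 became 0.13 without mutant replicate 1 and -0.06 without mutant replicates 1 and 2. The members' own mean difference, 0.44 on the same scale, was 0.31 without mutant replicate 1 and 0.30 without both.

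Within that list the genes with the smallest p went in both directions. Pmp22, a myelin gene also expressed in mesenchyme, was at -0.33 (SE 0.106), and Cadm4, a Schwann cell adhesion gene, at 0.39 (SE 0.147). Sox2, a factor of immature glia and of oral epithelium, was at 0.42 (SE 0.169), and Cnp, a gene of myelinating cells, at 0.28 (SE 0.157). The 4 had limma adjusted p from 0.754 to 0.774. Pmp2, a gene of mature myelin, was at 0 in all 8 libraries, which allows up to 3 reads in each, and Mag, another late myelin gene, chosen after its values were seen, was between 7.1 and 54.5 in mutants and between 0.0 and 20.2 in controls. All 7 members were detected in every library.

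**Figure D4:**
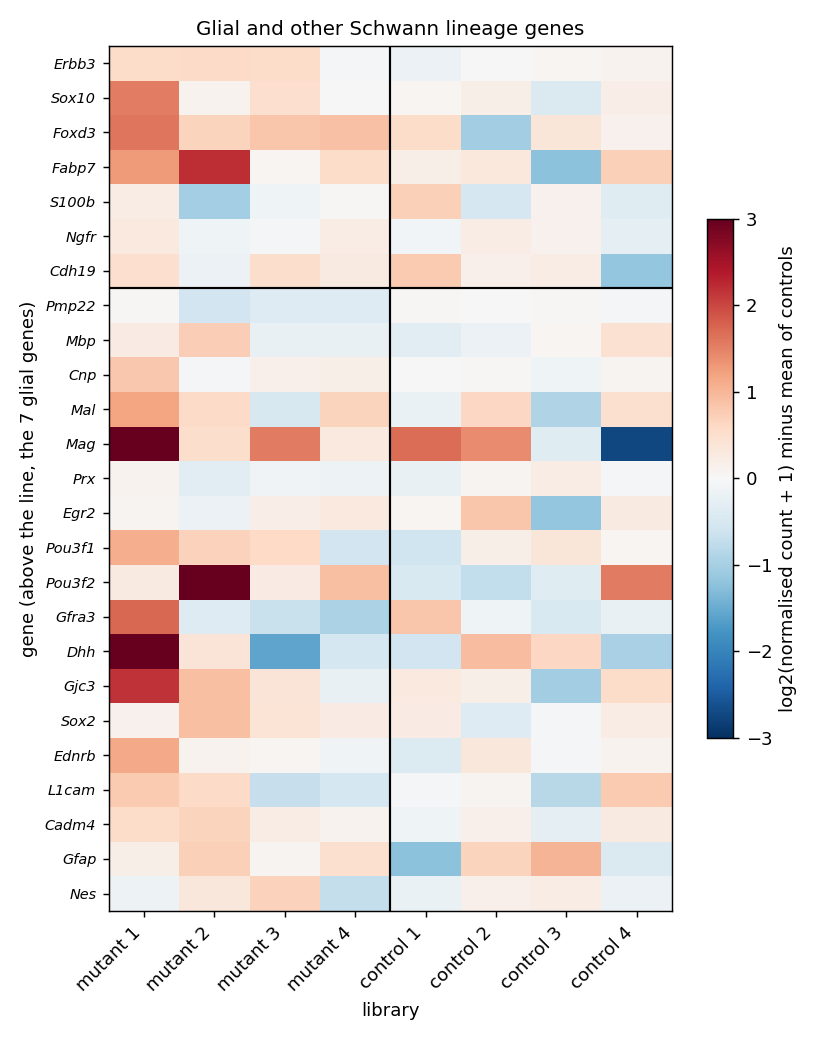
Log2(normalised count + 1) minus the mean of the controls (colour, limited to -3 and 3) for the 7 glial genes, above the horizontal line, and other Schwann lineage genes below it, in 4 mutant libraries left of 4 controls. Dhh, Gjc3 and Sox10 are high together in mutant replicate 1.

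Transcription factors of the wider neural crest were evenly divided. Of 10 tested, 5 had higher and 5 lower means in mutants, none passed, and the median difference on the log2 scale was -0.04. Zeb2, needed for crest migration and for Schwann cell maturation, had 4096 ± 1054 normalised counts in mutants and 4973 ± 496 in controls (SD, n = 4 each), a log2 difference of -0.31 (SE 0.150). Of the markers of melanocytes, which also descend from precursors on nerves, the pigment genes Tyr, Tyrp1 and Mlana were below 10 in every library. Kit and Mitf, which other cells also express, were present throughout, Kit at 622.4 to 1102.5 in mutants and 713.4 to 1068.5 in controls, and Mitf at 122.1 to 209.4 in mutants and 111.8 to 172.8 in controls. Pmel was at 22.2 to 43.8 in mutants and 0.0 to 55.4 in controls. Of the 4 tested melanocyte genes all had higher means in mutants and none passed, with Dct at 7.8, 15.1, 13.5 and 17.2 in mutants and at 0.0, 12.7, 3.1 and 10.8 in controls. Mitf was at 0.14 (SE 0.228), Kit at 0.04 (SE 0.182) and Pmel at 1.42 (SE 1.02).

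Markers of the nerves that the glia travel on mostly had lower means in mutants. Of 12 neuronal genes 4 had higher and 8 lower means in mutants, none passed, and the median difference on the log2 scale was -0.33. The sum of their counts ran from 4320 to 8841 in mutants and from 3629 to 9024 in controls. Ret, the receptor of GDNF ligands in sensory and autonomic neurons, was at -0.60 (SE 0.249), and Gap43, a growth cone protein, at -0.19 (SE 0.120). Control replicate 3 had the lowest neuronal level, -1.40 relative to controls, and also the lowest Sox10 and Fabp7. Mutant replicate 1, with the most Sox10, was at -0.15, within the range of the other libraries.

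Markers of other cell types in the dissection also differed between groups and libraries, and their part in the members' values was not tested. Epithelial genes had higher means in 10 of 10 cases, with summed counts of 25352 to 44409 in mutants and 22578 to 31619 in controls, and erythroid genes in 6 of 6 (15738 to 41689 in mutants and 19095 to 23316 in controls). Endothelial genes had lower means in 6 of 6 (11597 to 15209 in mutants and 15535 to 17094 in controls), osteoblast genes in 6 of 6 tested (5943 to 20214 in mutants and 21365 to 40138 in controls) and cartilage genes in 5 of 6 (7358 to 19354 in mutants and 15340 to 27481 in controls). Skeletal muscle genes had higher means in 4 of 6, with sums of 15275 to 58619 in mutants and 29951 to 38748 in controls. No gene of these lists passed the limma test.

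**Figure D5:**
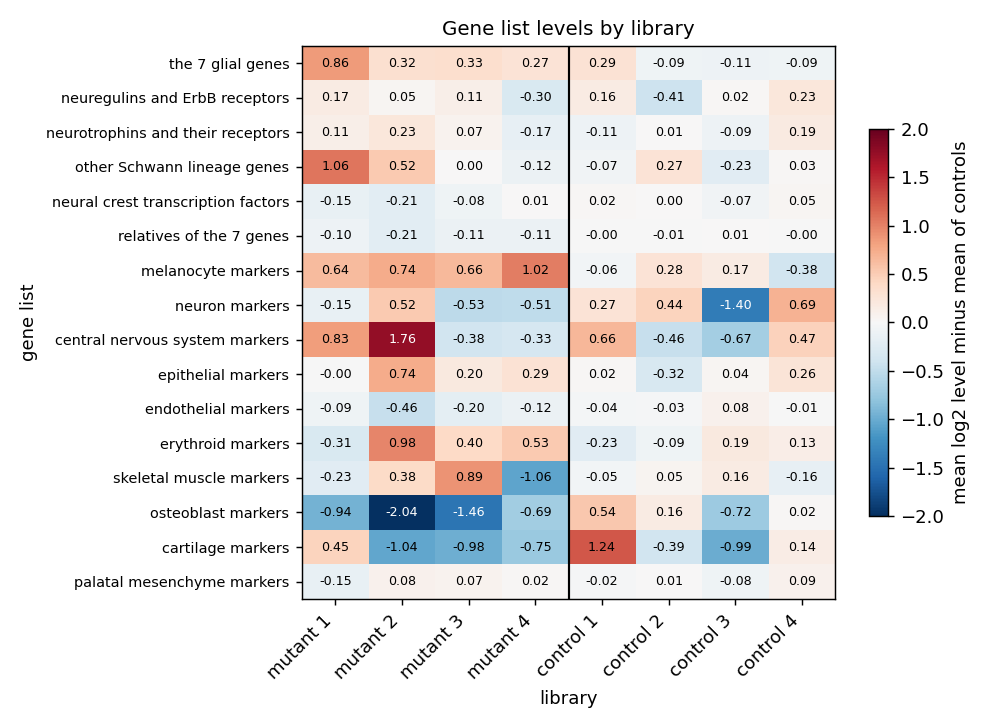
Mean log2 level of the tested genes of each list relative to the mean of controls (colour and printed value) in 4 mutant libraries left of 4 controls. The 7 glial genes and the other Schwann lineage genes peak in mutant replicate 1 (0.86 and 1.06), and the central nervous system and epithelial markers in mutant replicate 2 (1.76 and 0.74).

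The genes whose pattern over the 8 libraries was most like that of Sox10 and of Erbb3 were looked up among 13612 other genes with a mean of at least 50 normalised counts, by Pearson's r on the log2 scale, as a description. For Sox10 these were Cnp (r = 0.95), Kif19a, Arl8a, Sars2 and Plekha4 (r = 0.92), all with their highest value in mutant replicate 1. Without the 2 most extreme Sox10 libraries their r was 0.26 for Arl8a to 0.61 for Kif19a, lower for all 5 genes. These 2 libraries were mutant replicate 1 and control replicate 3, the highest and the lowest for Sox10. For Erbb3 they were Ppm1a (r = 0.96), Apaf1, Tpd52l1, Ten1 and Fbxw11 (r = 0.94), whose r without the 2 most extreme Erbb3 libraries was 0.88 for Ten1 to 0.97 for Fbxw11. These 2 libraries were mutant replicates 2 and 3, so mutant replicate 1, nearly as high for Erbb3 at 3134.1, was kept. The values of r for Erbb3 and for Sox10 with libraries left out are thus not comparable. Of the genes most like Sox10 or Erbb3, only Cnp is held in the Schwann lineage lists, and none passed the limma test.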

How the data were processed

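RNA of 4 mutant and 4 control libraries was analysed, with replicates numbered in accession order. The authors deposited signal values that are normalised counts with 1 decimal. These follow from whole reads scaled by a library's size factor: from 50 to 5000, 100% of values in each library were whole reads within 0.055 reads, against 10.6% to 11.8% at a wrong step. The authors also deposited variance-stabilised log2 values, used in 1 alternative. STAR 2.7.2 and DESeq2 are named per the submitters' processing notes, whereas the counting tool, strand setting and build are not given there. Gene positions equalled GENCODE M21 (GRCm38) for 95.2% of 52403 IDs, for Sox10 not, and exon lengths come from that annotation.

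Log2(normalised count + 1) was compared between mutants and controls with limma 3.58.1 (R 4.3.3, trend by mean level) over 16647 genes that reached 10 in at least 4 libraries. Adjusted p-values are limma's, by Benjamini-Hochberg over all of these genes, unless another tool is named. Alternatives used other pseudocounts (0.5 or 8), filters (none, or a mean of 50), TMM scaling, the stabilised values, a block on the first title number, 1 library left out at a time, and edgeR 4.0.16 or DESeq2 1.42.0 on recovered reads. Leaving out mutant replicates 1 and 2 together was chosen after seeing the data. The fit was tested on simulated data.

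The members and lists were chosen with earlier results of these data known. The genes named are the members, the neuregulin and neurotrophin lists, up to 4 of every other list with the smallest p or those at or near 0, the 5 most like Sox10 and the 5 most like Erbb3, and those said to be chosen after their values were seen. Some genes of the lists are counted in the totals but not reported singly here. Limits at 0 reads cover counting error only.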

Additional observations from a re-analysis of the deposited data

Results flagged for a closer look

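A library far from the other 3 of its group was looked for in 112 groups of 4, over the genes named, and found in 16. Chance gives about 1 in 20 groups, and several of these genes were named because of the outlying library.

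Among the members, Erbb3 stood at 2050.2 normalised counts in mutant replicate 4, below the 3 other mutants, and Foxd3 at 292.7 in mutant replicate 1, above them. Mutant replicate 1 also stood above the other mutants for Dhh at 182.8, Pmel at 43.8 and Plekha4 at 670.0. Mutant replicate 2 stood above the other mutants for Neurod6 at 716.5, Eomes at 708.9, Tubb3 at 1943.1, Elavl3 at 943.6 and Pou3f2 at 179.8. Mutant replicate 3 was high for Nrg4 at 20.3, and mutant replicate 4 low for Erbb2 at 5927.2. Of the controls, replicate 3 was high for Sorcs2 at 6148.5 and for Eomes at 16.4, replicate 4 high for Pou3f2 at 37.3, and replicate 1 low for Ppm1a at 3066.7.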

How the results depend on the processing

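Under 18 alternatives each, Sox10, Foxd3 and Fabp7 kept a positive log2 difference and stayed short of the threshold. Erbb3 stayed positive and passed in 1, without mutant replicate 4 (0.56, adjusted p = 0.0267 by limma, with 0.0267 to 0.998 over all alternatives). S100b changed sign without mutant replicate 2 (0.053) and without control replicate 1 (0.025), Ngfr without control replicate 4 (-0.012) and Cdh19 without control replicate 4 (-0.10), and the cause was not tested. With a library left out, Erbb3 ran from 0.35 to 0.56, Sox10 from 0.20 to 0.71, Foxd3 from 0.65 to 1.18, Fabp7 from 0.61 to 1.34, S100b from -0.38 to 0.05, Ngfr from -0.01 to 0.16 and Cdh19 from -0.10 to 0.54. The count of 4 genes past the threshold ran from 0 (without control replicate 2, control replicate 4 or mutant replicate 3) to 11, and DESeq2 called 31 genes. The labels do not say what the first number of the titles is. Deviations from the group means correlated at -0.05 to 0.21 between mutants and controls with the same number, against -0.18 to 0.14 for other pairs. With that number as a replicate block, Erbb3 was at 0.20, Sox10 at 0.26, Foxd3 at 0.87, Fabp7 at 1.19, S100b at -0.12, Ngfr at 0.01 and Cdh19 at 0.37, 6 genes passed and no call on a member changed. Mutant replicate 1 and control replicate 1 share their number with no other library. The blocked differences therefore rest on the 3602 and 2057 samples only, and are not an adjustment of all 8 libraries. On the authors' stabilised log2 scale, which compresses low counts, Foxd3 was at 0.21 and Fabp7 at 0.24. Among the members counting error was highest for Cdh19, at 12.6% of the mean in mutants and 13.7% in controls.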
